A study of Rattus norvegicus with 22 samples.

Results

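The genes described here were chosen as genes of the Schwann cells of peripheral nerves and spinal roots, though not all are confined to these cells. They are 7 genes, Pmp22, Prx, Drp2, Ncmap, Egr2, Pmp2 and Cdh19, found in the count table by their symbols among 32883 genes. All 7 symbols were found, 1 row each, and 6 of them had enough reads to be tested. The exception was Egr2, with at most 8 reads in any library.

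RNA was sequenced from the ventral part of the cervical spinal cord (C3-C6) of young adult Sprague-Dawley rats, 1 library per rat, after perfusion with saline. The groups were 5 males with intact testes, 5 gonadectomized (GDX) males whose testes had been removed, 6 females with intact ovaries and 6 ovariectomized (OVX) females. The rats were 3 to 4 months old, and the cords of GDX and OVX rats were taken 2 weeks after surgery. The controls were age-matched rats, and no sham operation is described for them. If they had none, removal of the gonads cannot be told apart from the operation, its anesthesia and its pain relief. Rats are named by the number in their labels, which gives intact males 1, 2, 3, 5 and 6 and GDX males 1, 2, 4, 5 and 6. Each library held between 12371756 and 17571887 counted reads.

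The libraries fell into a class of longer and a class of shorter average input fragments. The 7 libraries of the longer class came from intact males 1, 3 and 6 and intact females 2, 3, 5 and 6. The other 15 libraries, all GDX and OVX rats among them, were of the shorter class. The class therefore varied only among intact rats.

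Schwann cells wrap the axons of peripheral nerves and spinal roots in myelin, while oligodendrocytes do so inside the cord. Peripheral myelin has a protein makeup of its own, and the transcription factors Sox10 and Egr2 switch on many of its genes. Motor axons leave the ventral cord through the ventral roots, where the covering changes from oligodendrocyte to Schwann cell myelin at a transition zone, and the meninges cover cord and roots.

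Prx, a protein of myelinating Schwann cells, had between 34 and 303 reads in each of the 22 libraries. In bulk tissue, fewer Schwann cells and less RNA per cell cannot be told apart.

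Periaxin (Prx, ENSRNOG00000018369) is a scaffold protein of the outer Schwann cell membrane and binds Drp2 there. Its level in CPM (read counts relative to the size of the library, scaled by TMM) was 5.39 CPM in intact male 1, 3.41 in intact male 2, 10.1 in intact male 3, 2.54 in intact male 5 and 2.23 in intact male 6. In GDX males it was 3.92 CPM in rat 1, 8.26 in rat 2, 13.4 in rat 4, 10.7 in rat 5 and 12.9 in rat 6. Intact females ranged from 7.77 to 19.6 CPM with a median of 13.2, and OVX females from 10.2 to 17.5 CPM with a median of 13.3. Intact males were the low group apart from rat 3, and GDX male 1 lay within their range, so that the male groups overlapped while GDX males 4, 5 and 6 lay above every intact male. Every OVX female was above every intact male, and intact females overlapped with intact males through intact male 3.

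Prx was the single member called in GDX against intact males, where a call is an adjusted p below 0.1 from edgeR's quasi-likelihood test with Benjamini-Hochberg adjustment. It was 2.1-fold higher in GDX males (log2 fold change 1.07, SE 0.38, adjusted p = 0.0955 by edgeR). This was 1 of 6 members tested, where 13.4% of all 14931 genes tested were called and 6.78% were called as higher in GDX males, so the count of members is close to the background. The call was near its threshold. It was lost in 8 of the 10 fits that each left out 1 male, in which the log2 fold change lay between 0.89 and 1.54 and the adjusted p in edgeR's test between 0.0162 and 0.203. DESeq2 gave an adjusted p of 0.167 for the same difference. The lowest of these adjusted p-values came without intact male 3, the intact male with the highest Prx. With the mean level of meninges and fibroblast genes as a term, the value of Prx turned to -0.57 (adjusted p = 0.973 by edgeR). Only 6 genes in all were called in that fit.

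**Figure D1:**
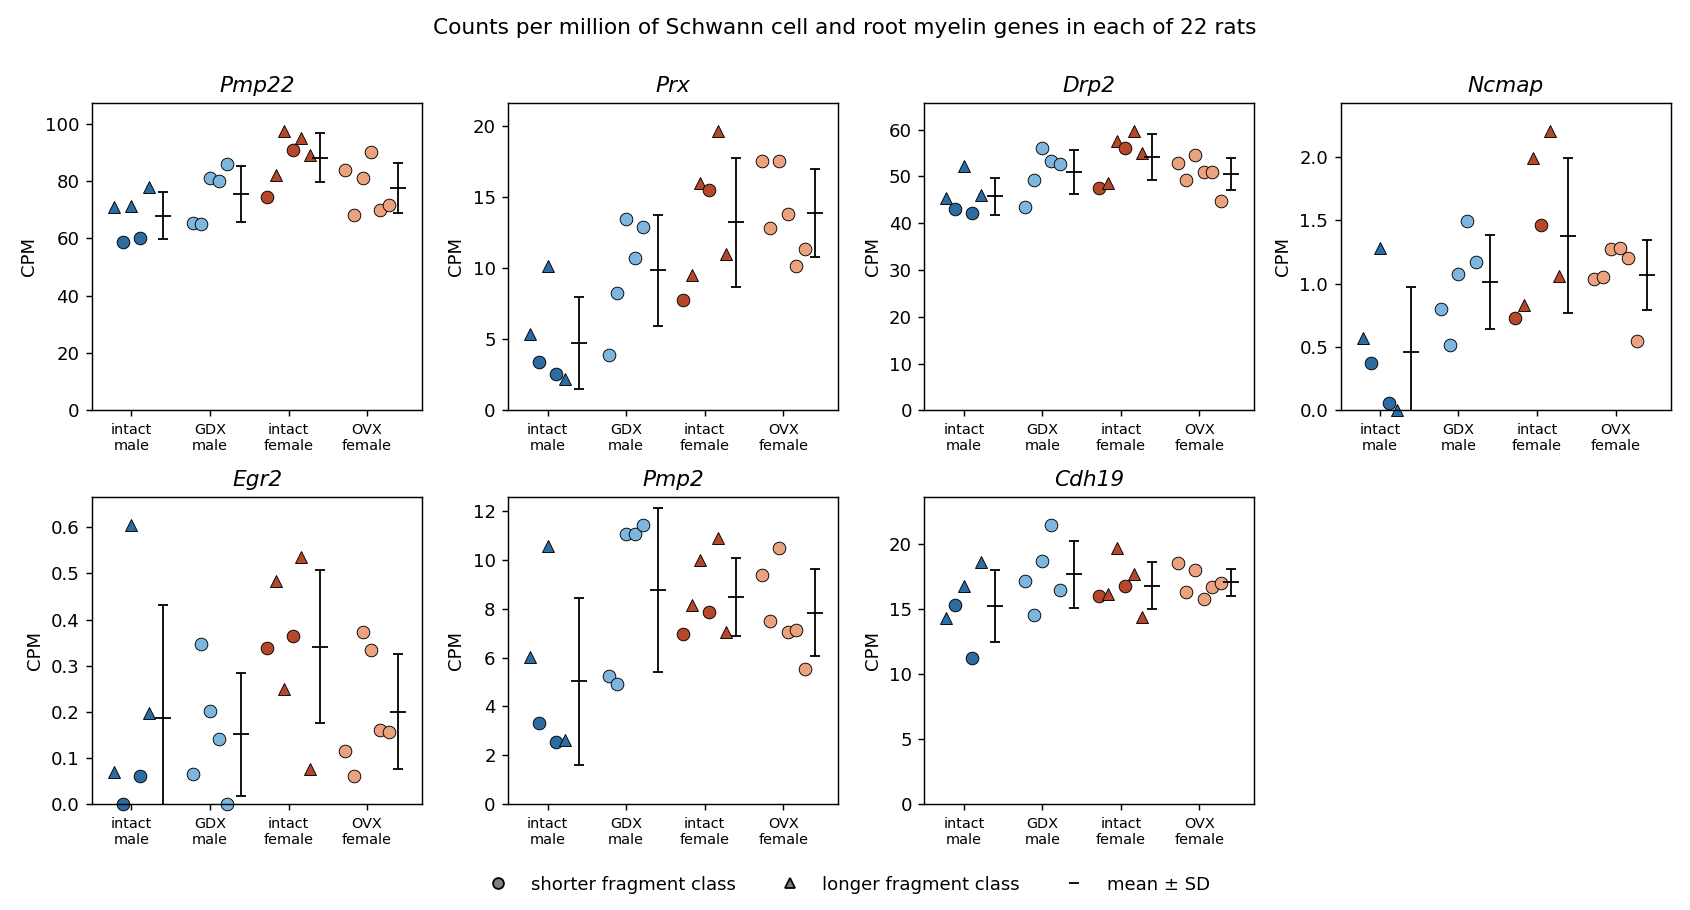
Level in CPM (y axis) of the 7 genes in each of 22 rats, by group, with circles for libraries of the shorter and triangles for those of the longer fragment class, and black bars for the group mean ± SD (bars that pass below 0 stop there). In Prx, Ncmap and Pmp2, intact male 3 stands above the other 4 intact males, and GDX males 4, 5 and 6 stand above GDX males 1 and 2.

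**Figure D2:**
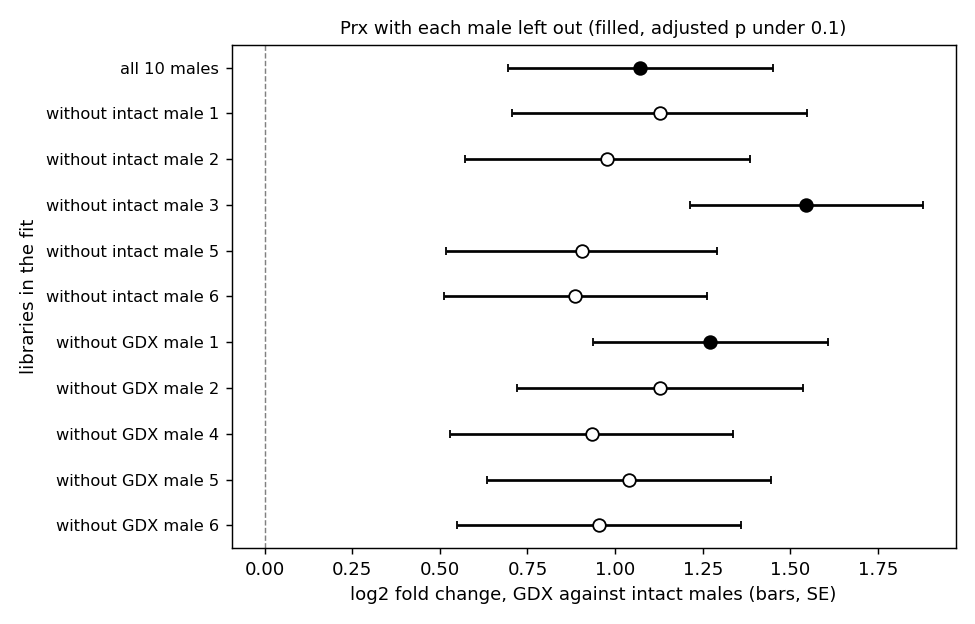
Log2 fold change of Prx in GDX against intact males (x axis, bars for the SE) with all 10 males and with each male left out (y axis), filled where the adjusted p in edgeR's test was under 0.1. The value lay between 0.89 and 1.54 in the 10 fits without 1 male, and it was called in those without intact male 3 and without GDX male 1.

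In OVX against intact females the log2 fold change of Prx was 0.08 (SE 0.19, approximate 95% interval -0.30 to 0.46, adjusted p = 0.938 by edgeR). The difference between the male and the female response was 1.00 on the log2 scale (SE 0.44, adjusted p = 0.375 by edgeR over 15562 genes), which did not pass the threshold. Between the intact sexes Prx was called, with a log2 fold change of -1.50 in males against females (SE 0.33, adjusted p = 0.027 by edgeR) and 11 of 11 fits without 1 rat keeping the call. The call was lost in the shorter class only (-1.96, adjusted p = 0.152 by edgeR), where 34 genes in all were called. It was also lost with the mean level of meninges and fibroblast genes as a term (-0.53, adjusted p = 0.911 by edgeR), where 20 were. GDX males against OVX females gave -0.50 (SE 0.23, adjusted p = 0.521 by edgeR).

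Dystrophin-related protein 2 (Drp2, ENSRNOG00000026704) is the partner of Prx and links it to dystroglycan and so to the basal lamina. It varied little, from 42.3 CPM in intact male 5 to 59.7 CPM in intact female 5, a ratio of 1.41 between the highest and the lowest rat. Intact males had 45.4, 43.0, 52.2, 42.3 and 46.1 CPM in rats 1, 2, 3, 5 and 6, and GDX males had 43.6, 49.3, 56.1, 53.2 and 52.6 CPM in rats 1, 2, 4, 5 and 6. Intact females lay between 47.6 and 59.7 CPM (median 55.6) and OVX females between 44.7 and 54.5 CPM (median 51.0). The order of rats resembled that of Prx, with intact male 3 and GDX males 4, 5 and 6 as the highest males, and all groups overlapped.

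Drp2 was called between the intact sexes, with a log2 fold change of -0.24 in males (SE 0.07, adjusted p = 0.081 by edgeR), but in only 3 of the 11 fits without 1 rat, with adjusted p between 0.0319 and 0.187 in edgeR's test. Its log2 fold change was 0.16 in GDX against intact males (SE 0.07, adjusted p = 0.209 by edgeR) and -0.09 in OVX against intact females (SE 0.06, adjusted p = 0.65 by edgeR). The male comparison called Drp2 without intact male 3 (0.21, adjusted p = 0.0894 by edgeR) and without GDX male 1 (0.20, adjusted p = 0.0636 by edgeR).

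Pmp22 (ENSRNOG00000003338) encodes a membrane protein of compact peripheral myelin and is also made by cells outside the nerve, such as fibroblasts. Intact males had 71.1, 58.7, 71.5, 60.1 and 77.9 CPM in rats 1, 2, 3, 5 and 6. GDX males had 65.4, 65.0, 81.3, 80.2 and 86.0 CPM in rats 1, 2, 4, 5 and 6. Intact females lay between 74.5 and 97.5 CPM (median 90.1) and OVX females between 68.4 and 90.3 CPM (median 76.5). The intact females were highest as a group, with intact females 2, 3, 4, 5 and 6 above every intact male. Unlike Prx, Pmp22 was highest among the intact males in rat 6.

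Between the intact sexes Pmp22 was lower in males, by -0.37 on the log2 scale (SE 0.08, adjusted p = 0.0211 by edgeR), and was called in 11 of 11 fits without 1 rat. In the shorter class only, where 34 genes in all were called, Pmp22 had -0.47 (adjusted p = 0.198 by edgeR). With the mean level of meninges and fibroblast genes as a term, where 20 genes were called, Pmp22 had -0.23 (adjusted p = 0.837 by edgeR). In GDX against intact males it was 0.15 (SE 0.09, adjusted p = 0.332 by edgeR), in OVX against intact females -0.18 (SE 0.07, adjusted p = 0.424 by edgeR), and the difference between these responses was 0.34 (SE 0.13, adjusted p = 0.28 by edgeR). With fragment class as a term in the male comparison the value was 0.35 (adjusted p = 0.0957 by edgeR). In OVX against intact females the same term gave -0.085 (adjusted p = 0.901 by edgeR).

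Ncmap (ENSRNOG00000048139) encodes a small membrane protein of noncompact peripheral myelin. It was thinly counted, with 328 reads over all 22 libraries and at most 33 in 1 library. Intact males had 8, 5, 17, 1 and 0 reads in rats 1, 2, 3, 5 and 6, or 0.567, 0.37, 1.28, 0.0619 and 0 CPM. Ncmap thus came close to absent from the reads of intact males 5 and 6. The 0 in intact male 6 allows a level of up to 0.197 CPM, a limit of 3 reads that covers counting error only. GDX males had 0.797, 0.52, 1.08, 1.49 and 1.17 CPM in rats 1, 2, 4, 5 and 6. Intact females lay between 0.732 and 2.20 CPM (median 1.26) and OVX females between 0.547 and 1.28 CPM (median 1.13). The lowest levels were in intact males 5 and 6, which also had the lowest Prx, and intact male 3 lay within the ranges of GDX males and intact females and level with the highest OVX female.

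The log2 fold changes of Ncmap were 1.18 in GDX against intact males (SE 0.60, adjusted p = 0.249 by edgeR) and -1.63 in intact males against intact females (SE 0.58, adjusted p = 0.17 by edgeR), and neither was called in these fits. The second was called by DESeq2 (-1.620, adjusted p = 0.0917) and by edgeR with all 22 libraries in 1 fit (-1.631, adjusted p = 0.0958). Without intact male 3 they were 2.03 (adjusted p = 0.0565 by edgeR) and -2.48 (adjusted p = 0.0442 by edgeR). In females the value was -0.36 for OVX against intact (SE 0.29, adjusted p = 0.747 by edgeR).

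The promoters of Prx and Ncmap are shown, 1 of the pairs of members whose levels were correlated between rats. It was not the closest pair, as r was 0.8, beside 0.837 for Prx and Drp2. Each promoter shown holds 250 bases before and 50 after the start site, 5′ to 3′ on the strand of the gene, from RefSeq on GRCr8, a later build than that of the counts. Of the 7 genes 6 had an entry, and Pmp2 had none. Capitals would mark ACAAAG or ACAATG (SOX) and GTGGGCG or GGGGGCG (EGR) on either strand. None of these letters occurs in either sequence, nor in the windows of the other 4 genes with an entry, and nothing follows from this about either factor. Of 33469 promoters of this length 29.1% hold a SOX and 19.7% an EGR motif (18.8% ACAAAG, 13.2% ACAATG, 7.12% GTGGGCG and 14.7% GGGGGCG). The Prx window is chr1:91914171-91914470 (+) and the Ncmap window chr5:152902365-152902664 (-).
Prx: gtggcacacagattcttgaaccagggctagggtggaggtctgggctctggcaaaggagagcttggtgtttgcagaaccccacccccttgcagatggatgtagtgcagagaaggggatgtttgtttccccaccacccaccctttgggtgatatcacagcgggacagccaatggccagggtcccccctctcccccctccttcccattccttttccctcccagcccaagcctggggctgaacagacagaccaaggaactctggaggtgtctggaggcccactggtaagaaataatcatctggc
Ncmap: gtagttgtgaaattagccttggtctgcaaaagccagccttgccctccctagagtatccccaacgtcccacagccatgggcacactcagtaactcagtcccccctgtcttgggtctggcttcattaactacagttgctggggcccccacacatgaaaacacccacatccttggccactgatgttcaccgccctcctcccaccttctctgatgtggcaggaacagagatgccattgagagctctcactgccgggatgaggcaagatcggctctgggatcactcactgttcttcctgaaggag

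Pmp2 (ENSRNOG00000022707) encodes a fatty acid binding protein on the inner face of peripheral myelin membranes. Intact males had 6.03, 3.33, 10.6, 2.54 and 2.63 CPM in rats 1, 2, 3, 5 and 6. GDX males had 5.25, 4.91, 11.1, 11.1 and 11.4 CPM in rats 1, 2, 4, 5 and 6. Intact females lay between 6.98 and 10.9 CPM (median 8.02) and OVX females between 5.54 and 10.5 CPM (median 7.32). Males split within both groups, since intact male 3 and GDX males 4, 5 and 6 were above 10 CPM and the other males were under 7 CPM. The females covered the span between the male subsets and overlapped with both.

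Pmp2 was not called by edgeR in any of the 4 comparisons of 2 groups with all their rats, each fitted alone. Its log2 fold change was 0.81 in GDX against intact males (SE 0.37, adjusted p = 0.194 by edgeR), -0.11 in OVX against intact females (SE 0.15, adjusted p = 0.876 by edgeR) and -0.77 in intact males against intact females (SE 0.30, adjusted p = 0.223 by edgeR). The first was called by edgeR with all 22 libraries in 1 fit (0.811, adjusted p = 0.0967) and in the shorter class only (1.577, adjusted p = 0.0883). Without intact male 3 the first was 1.27 (adjusted p = 0.0288 by edgeR) and the last -1.23 (adjusted p = 0.0168 by edgeR).

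Cdh19 (ENSRNOG00000029841) encodes a cadherin of the Schwann cell lineage. It lay between 11.2 CPM in intact male 5 and 21.4 CPM in GDX male 5. Intact males averaged 15.2 ± 2.77 CPM (SD, n = 5) and GDX males 17.6 ± 2.59 CPM (SD, n = 5). Intact females averaged 16.8 ± 1.79 CPM (SD, n = 6) and OVX females 17.1 ± 1.03 CPM (SD, n = 6). All 4 groups overlapped and no comparison called it. Its log2 fold change was 0.21 in GDX against intact males (SE 0.13, adjusted p = 0.337 by edgeR) and -0.14 in intact males against intact females (SE 0.11, adjusted p = 0.606 by edgeR).

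Egr2 (ENSRNOG00000000640) is the transcription factor that drives the myelinating state. It had 74 reads in all, none in intact male 2 and GDX male 6, and at most 8 in a library. Pooled over a group it stood at 0.18 CPM in intact males (95% Poisson interval 0.0958 to 0.308), 0.157 in GDX males (0.0809 to 0.274), 0.344 in intact females (0.234 to 0.488) and 0.2 in OVX females (0.119 to 0.316). These exact intervals cover counting error only, and Egr2 was not tested between groups.

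All 6 tested members had a positive log2 fold change in GDX against intact males, with a median of 0.51 beside 0.00 over all genes tested. In OVX against intact females 2 were positive and 4 negative (median -0.10), and 0 of 6 were called by edgeR, where 0.0335% of 14910 genes were called. DESeq2 also called 0 of them there. Of the members, Pmp22 alone had an unadjusted p under 0.05 in edgeR's test, as did 1516 of the 14910 genes. In the difference between the responses of males and females 0 of 6 members were called by edgeR or DESeq2, beside 0.116% of all genes, while 5 of 6 members and 1810 of 15562 genes had an unadjusted p under 0.05 in edgeR's test and all 6 members' values were positive (median 0.63).

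Intact males against intact females held the largest count of called members. Pmp22, Prx and Drp2, 3 of 6, were called lower in males, where 4.01% of 14937 genes were called and 2.56% were called as lower in males. All 6 values were negative, with a median of -0.57 beside 0.00 over all genes tested. Among libraries of the shorter class, 2 intact males against 2 intact females, none of the 6 was called by edgeR, beside 34 genes in all, with -1.96 for Prx (adjusted p = 0.152 by edgeR) and -0.47 for Pmp22 (adjusted p = 0.198 by edgeR). In GDX males against OVX females 3 values were positive and 3 negative (median -0.01), and 0 of 6 were called by edgeR or DESeq2, where 0.232% of 15084 genes were called, and Prx alone of the members had an unadjusted p under 0.05 in edgeR's test, as did 1413 of the 15084 genes. These comparisons share groups of rats and are not independent of each other.

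**Figure D3:**
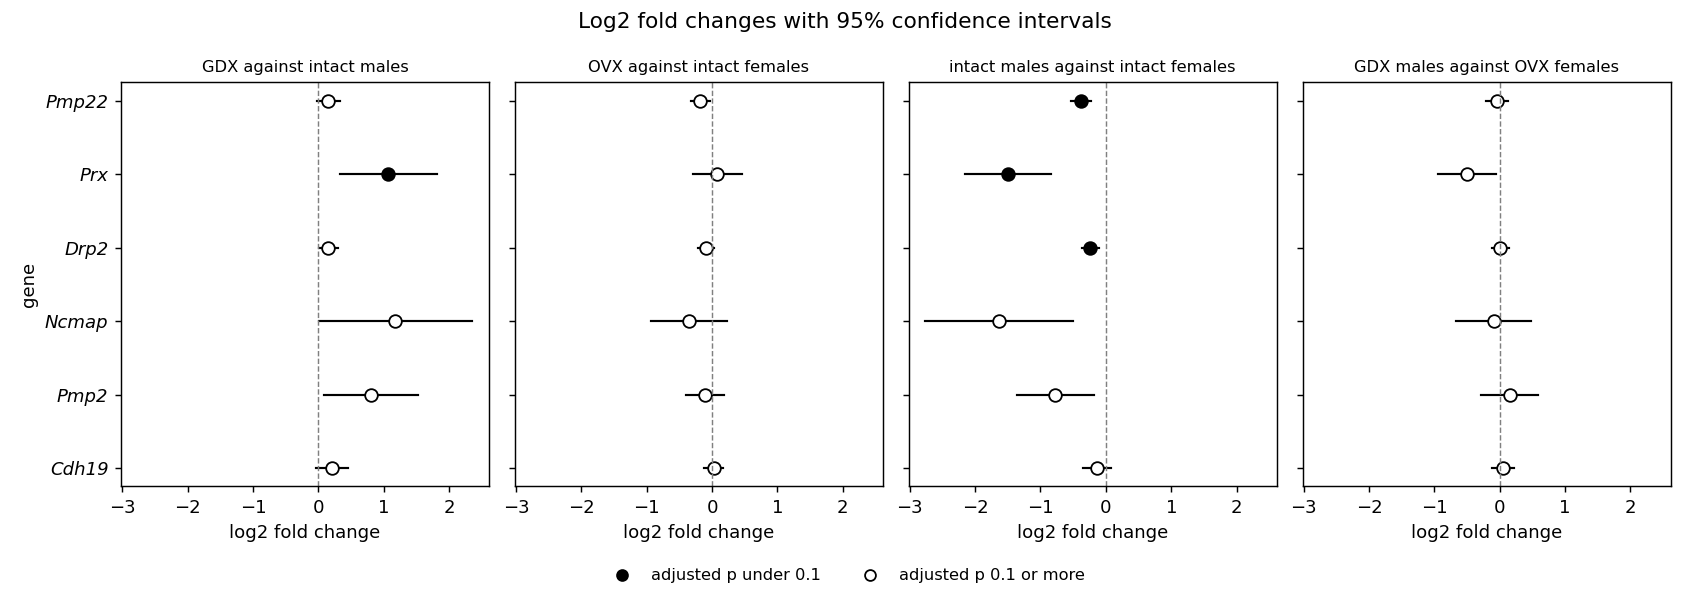
Log2 fold change (x axis) of the 6 tested genes in 4 comparisons, with filled points for an adjusted p under 0.1 in edgeR's test. The bars are approximate 95% intervals, made from the SE with a normal distribution, and are narrower than edgeR's test implies. That of Ncmap in GDX against intact males lies wholly on the positive side (0.005 to 2.36), at an unadjusted p of 0.068 by edgeR. Filled points stand at Prx in GDX against intact males and at Pmp22, Prx and Drp2 between the intact sexes.

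The fragment class was compared where it varies, among the 11 intact rats with sex as a term. None of the 6 members was called by edgeR or DESeq2, where 0.00669% of genes were called by edgeR. All 6 values were positive for longer against shorter (median 0.37 beside 0.00 over all genes). Pmp22 (log2 fold change 0.21, adjusted p = 0.397 by edgeR) and Pmp2 (0.62, adjusted p = 0.62 by edgeR) had an unadjusted p under 0.05. All 8 motor neuron genes were also positive there (median 0.40), and although 0 were called by edgeR, 8 had an unadjusted p under 0.05. Over all genes, 1151 of 14937 did in that test. Intact male 3, high in most members, is of the longer class, and so is intact male 6, low in Prx, Ncmap and Pmp2. With the class as a term in GDX against intact males, the values of all 6 members were larger than without it. On the log2 scale they were 1.73 for Prx, 2.25 for Ncmap, 1.575 for Pmp2, 0.416 for Cdh19, 0.346 for Pmp22 and 0.257 for Drp2. That fit sets GDX males against intact males 2 and 5, the only intact males of the shorter class.

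Whether the members vary together between rats of 1 group was asked with log2 CPM centred on the 4 group means, over 22 rats and 21 pairs of genes. Permutations were made within groups, two-sided, and adjusted over the 21 pairs by Benjamini-Hochberg. All 21 coefficients were positive, beside 50.0% of all pairs of 15562 tested genes. Of the member pairs 10 had an adjusted permutation p under 0.1. The lowest r of these 10 was 0.515, a value that 2.11% of all pairs of tested genes reached, a share computed after the members' values were seen. Prx and Pmp2 were the closest pair, with Pearson's r = 0.886 (permutation p = 1e-05, the smallest that 100000 permutations can give, adjusted p = 0.00021) and Spearman's rho = 0.845 (permutation p = 4e-05, adjusted p = 0.00042). Without intact male 3 and GDX male 1, the farthest in Prx, r was 0.838.

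Ncmap followed both. With Pmp2 it had r = 0.857 (permutation p = 2e-05, adjusted p = 0.00021) and rho = 0.779 (permutation p = 0.00042, adjusted p = 0.00221), and r = 0.781 without intact males 3 and 6. With Prx it had r = 0.8 (permutation p = 0.00027, adjusted p = 0.00113) and rho = 0.73 (permutation p = 0.00132, adjusted p = 0.00554), and r = 0.812 without the 2 farthest rats. Within the 15 libraries of the shorter class r was 0.783 for Prx and Pmp2, 0.727 for Ncmap and Pmp2 and 0.532 for Prx and Ncmap, and within the 7 of the longer class it was 0.967, 0.973 and 0.985.

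Prx and Drp2, the binding partners, had r = 0.837 (permutation p = 6e-05, adjusted p = 0.000315) and rho = 0.826 (permutation p = 4e-05, adjusted p = 0.00042), with r = 0.755 without the 2 farthest rats, 0.885 in the shorter and 0.741 in the longer class. Pmp22 and Drp2 had r = 0.736 (permutation p = 0.00037, adjusted p = 0.0013) and rho = 0.664 (permutation p = 0.00233, adjusted p = 0.00699), with r = 0.709 without the 2 farthest rats. Pmp22 and Prx had r = 0.585 (permutation p = 0.00992, adjusted p = 0.026) and rho = 0.556 (permutation p = 0.016, adjusted p = 0.0373), with r = 0.556 without the 2 farthest rats. For this last pair r was 0.762 in the shorter and 0.00619 in the longer class, and for Pmp22 and Pmp2 (r = 0.544 over all rats, adjusted permutation p = 0.0557) it was 0.712 and -0.211. Differences between the classes were not tested. Egr2 had an adjusted permutation p above 0.1 with every other member, at counts of at most 8 reads.

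**Figure D4:**
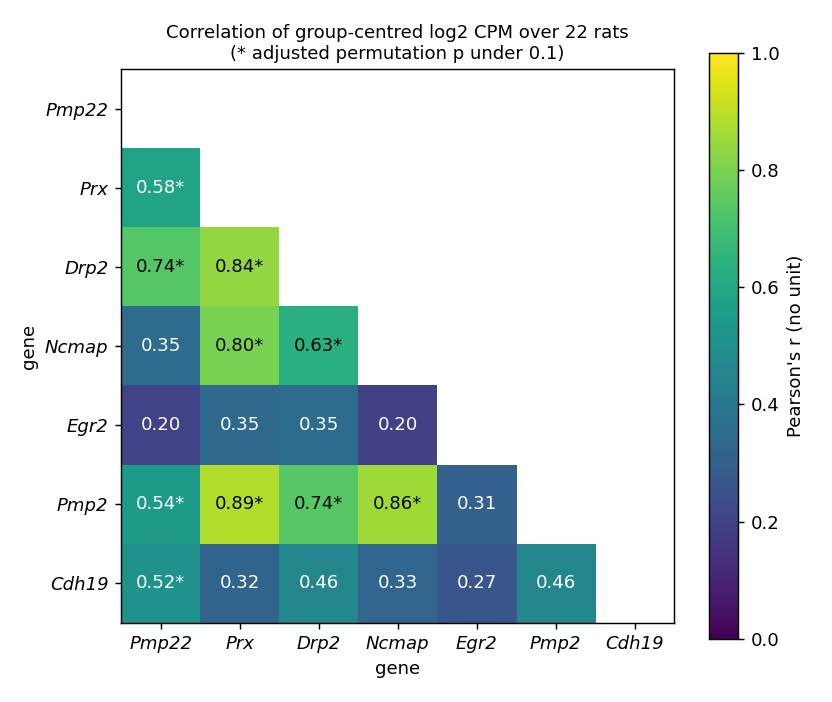
Pearson's r (color, no unit) of group-centred log2 CPM for each of the 21 pairs of genes over 22 rats, with stars for an adjusted permutation p under 0.1. All 6 pairs among Prx, Drp2, Ncmap and Pmp2 carry a star, as do 4 pairs with Pmp22, and the row of Egr2 holds no star.

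Over all genes tested, those with a pattern like that of Prx included Pmp2 (r = 0.886 of group-centred log2 CPM, rho = 0.845, n = 22) and Mlip (r = 0.856). Those like Ncmap included Pmp2 (r = 0.857) and Cldn1 (r = 0.811), and those like Pmp2 included Prx (r = 0.886) and Ncmap (r = 0.857). Drp2 was nearest to Thbs1 (r = 0.854), Prx (r = 0.837) and Serp1 (r = 0.812), and Pmp22 to Anxa2 (r = 0.889), Med10 (r = 0.877) and Chodl (r = 0.859). For Cdh19 they were Mgmt (r = 0.738), Eif2a (r = 0.737) and Ptgfr (r = 0.704), and for the thinly counted Egr2 Aurka (r = 0.795), Lair1 (r = 0.779) and Cdkl1 (r = 0.759). Genes like the mean z score of the tested members included Slco2a1 (r = 0.808), Arhgap10 (0.802), Fgl2 (0.795), Mlip (0.792), Rbp4 (0.787), Thbs1 (0.785), Akr1b1 (0.78), Gas2l3 (0.776) and Sfrp5 (0.769). These are among the highest values of a search over all genes and are given as a description.

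Of the other genes of peripheral myelin and Schwann cell structure, Mbp, a myelin protein that oligodendrocytes share, is the most abundant with 54.6% of the summed CPM of its list. Its log2 fold change in GDX against intact males was 0.17 (SE 0.05, adjusted p = 0.067 by edgeR). Nrcam, an adhesion protein of nodes of Ranvier, had -0.14 (SE 0.04, adjusted p = 0.0425 by edgeR).

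Of the 11 transcription factors and co-factors of Schwann cells, 1 was called in GDX against intact males, Wwtr1, a co-activator of the Hippo pathway (log2 fold change 0.32, SE 0.09, adjusted p = 0.0366 by edgeR). Over all 14931 genes tested there, 13.4% were called and 6.78% were called as higher. These shares also stand beside the counts of the other lists in that comparison. The median of the 11 was 0.04, and the most abundant, Zeb2, had 0.04 (SE 0.04, adjusted p = 0.62 by edgeR). Several of these factors, Sox10 among them, are also made by oligodendrocytes.

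Of the 15 genes of the dystroglycan complex and laminin contact, to which Prx and Drp2 connect, 9 rose in GDX males and none fell (median 0.14). The called genes with the smallest adjusted p were Itgb4 (log2 fold change 1.42, SE 0.33, adjusted p = 0.0168 by edgeR), Itga6 (0.19, SE 0.04, adjusted p = 0.0169 by edgeR) and Lamc1 (0.25, SE 0.06, adjusted p = 0.0226 by edgeR), subunits of laminin receptors and of laminin. For Itgb4 the intact males averaged 20.8 ± 6.98 CPM (SD, n = 5), the GDX males 55.5 ± 31.7 CPM (SD, n = 5), the intact females 57.1 ± 16.4 CPM (SD, n = 6) and the OVX females 60.4 ± 13.4 CPM (SD, n = 6). The most abundant gene, Utrn, showed a log2 difference of 0.14 (SE 0.05, adjusted p = 0.0888 by edgeR). These genes are also expressed in vessels and meninges.

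Of the 11 genes for signals between axon and Schwann cell, 9 were tested in GDX against intact males, of which 1 rose and 4 fell (median -0.23). Adgrg6, a receptor Schwann cells need to start myelination, rose (log2 fold change 0.28, SE 0.08, adjusted p = 0.0421 by edgeR). Cadm3, an axonal adhesion protein and the most abundant of the list, fell (log2 fold change -0.31, SE 0.06, adjusted p = 0.01 by edgeR), as did Adam22 (-0.23, SE 0.05, adjusted p = 0.0176 by edgeR) and Cadm1 (-0.19, SE 0.05, adjusted p = 0.0273 by edgeR). Of 8 tested genes of non-myelinating and immature Schwann cells 1 rose, Fabp7 (0.29, SE 0.07, adjusted p = 0.0235 by edgeR), and 1 fell, L1cam (-0.36, SE 0.07, adjusted p = 0.00714 by edgeR), both of which glia or neurons of the cord also make. The most abundant, Ncam1, had 0.00 (SE 0.04, adjusted p = 0.965 by edgeR).

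Of the immediate early genes, chosen as Egr2 is 1 of them, 1 of 5 tested was called in GDX against intact males, beside 13.4% of all genes. It was Egr1 (log2 fold change 0.42, SE 0.14, adjusted p = 0.0872 by edgeR), and Fos, the most abundant, had 0.14 (SE 0.13, adjusted p = 0.575 by edgeR).

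Genes of the meninges and fibroblasts moved beside the members. Of the 15 listed, 14 were in the table and 12 were tested in GDX against intact males, and all 12 were called as higher in GDX males, with a median log2 fold change of 1.59. Between the intact sexes 10 of 12 were called as lower in males (median -1.26), and in OVX against intact females 0 of 13 were called by edgeR, also before adjustment at 0.05 (median 0.31). Col1a1, a fibrillar collagen and the most abundant with 27.2% of the summed CPM, showed a log2 difference of 1.81 in GDX males (SE 0.35, adjusted p = 0.00848 by edgeR). The smallest adjusted p-values belonged to Foxc1 (1.19, SE 0.17, adjusted p = 0.00303 by edgeR), Slc6a13 (1.57, SE 0.26, adjusted p = 0.00554 by edgeR) and Col3a1 (1.73, SE 0.29, adjusted p = 0.00607 by edgeR). No gene of this list was at 0 in every rat.

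The summed CPM of this list was 203.8, 137.6, 139.5, 93.7 and 73.8 in intact males 1, 2, 3, 5 and 6 and 185.2, 304.8, 439.5, 587.7 and 474.3 in GDX males 1, 2, 4, 5 and 6. Intact females lay between 146.6 and 476 and OVX females between 285.6 and 499.7. GDX male 1, which had the lowest Prx of its group, also had the lowest sum of its group, and intact males 5 and 6 had the lowest sums of all. Intact male 3 was high in the members but not in this sum. With the mean log2 CPM of the list as a term in the fit, 0 of 6 members were called by edgeR in GDX against intact males, where only 6 genes in all were, or between the intact sexes, where 20 were, so the counts of members say little there. The log2 fold change of Prx in these fits was -0.57 (SE 0.62, adjusted p = 0.973 by edgeR) and -0.53 (SE 0.50, adjusted p = 0.911 by edgeR). In that mean the GDX males (2.84 to 4.31) did not overlap with the intact males (1.59 to 2.60), so that in males the list's level and removal of the testes cannot be told apart.

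**Figure D5:**
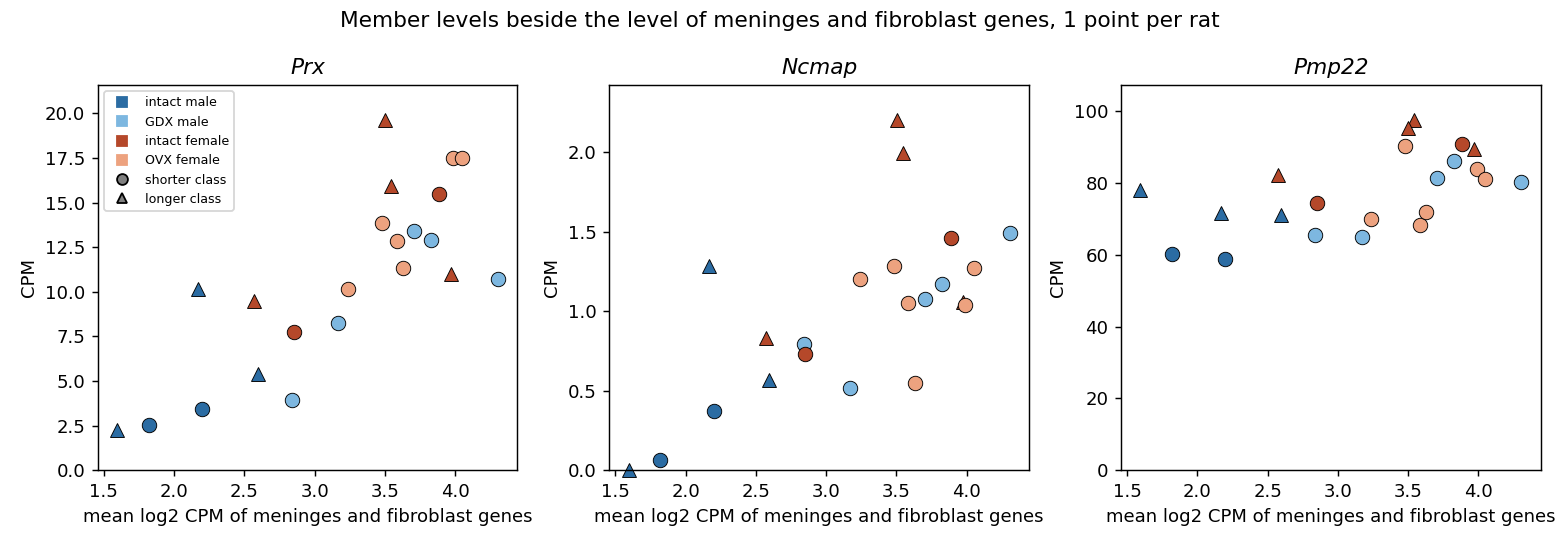
Level in CPM (y axis) of Prx, Ncmap and Pmp22 in each rat against the log2 CPM averaged over the meninges and fibroblast genes (x axis), with color for the group and shape for the fragment class. Intact males 5 and 6 lie at the lower left for Prx and Ncmap, and intact male 3 lies above the other intact males there.

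Other markers were given the same reading, and their part in the members' values was not tested. Of 5 perineurium and endoneurium genes tested in GDX against intact males 3 rose, Itgb4 (above), Slc2a1 (log2 fold change 0.26, SE 0.06, adjusted p = 0.0169 by edgeR) and Clec3b (0.93, SE 0.25, adjusted p = 0.0315 by edgeR), and Sox9, the most abundant, had 0.08 (SE 0.05, adjusted p = 0.338 by edgeR). Between the intact sexes 3 of 6 were called by edgeR as lower in males (Itgb4, Cldn1 and Clec3b, singled out after their values were seen), and all 6 were negative, with a median of -0.70 beside -0.57 for the members. Of 8 endothelial genes 6 rose in GDX males, led by Cdh5 (1.23, SE 0.15, adjusted p = 0.00136 by edgeR), Tek (0.49, SE 0.09, adjusted p = 0.00752 by edgeR) and Slco1a4 (0.45, SE 0.08, adjusted p = 0.0082 by edgeR), and the most abundant, Flt1, had 0.54 (SE 0.15, adjusted p = 0.0352 by edgeR). In females Kdr, a receptor of endothelial growth factor, was 1 of the 5 genes called in OVX against intact (log2 fold change 0.77, SE 0.13, adjusted p = 0.0966 by edgeR). The endothelial list had a median of 0.49 in both sexes, while the members' median was 0.51 in males and -0.10 in females.

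Of 13 oligodendrocyte genes 2 rose in GDX males, beside 6.78% of all genes. They were Ermn (log2 fold change 0.24, SE 0.05, adjusted p = 0.0133 by edgeR) and Mbp (above), and the median of the list was 0.07. Summed, the oligodendrocyte list averaged 25658 ± 1423 CPM (SD, n = 5) over the intact and 27852 ± 1247 CPM (SD, n = 5) over the GDX males, a narrow range beside that of Prx. Of 7 astrocyte genes Gfap, the most abundant (0.38, SE 0.06, adjusted p = 0.00472 by edgeR), and Aqp4 (0.18, SE 0.04, adjusted p = 0.0209 by edgeR) rose and Slc7a10 fell (-0.31, SE 0.06, adjusted p = 0.0082 by edgeR). None of 6 microglial genes was called by edgeR, with 1 under 0.05 before adjustment, and Csf1r had 0.10 (SE 0.07, adjusted p = 0.446 by edgeR).

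Of 8 motor neuron genes 1 was called in GDX against intact males, beside 13.4% of all genes. Slc18a3, the vesicular acetylcholine transporter, fell (log2 fold change -0.43, SE 0.13, adjusted p = 0.0542 by edgeR), and Prph, the most abundant, had -0.07 (SE 0.16, adjusted p = 0.826 by edgeR). In OVX against intact females all 8 were negative (median -0.33), and 0 were called by edgeR while 6 had an unadjusted p under 0.05. Of the members Pmp22 had the highest r with the group-centred log2 CPM averaged over this list (r = 0.7, n = 22). By the same measure Prx and Ncmap each had r = 0.74 with the perineurium and endoneurium genes, and with the meninges and fibroblast genes Prx had 0.665 and Drp2 0.618. With the other peripheral myelin genes all 7 members had a positive r, from 0.366 (Egr2) to 0.846 (Pmp2) and 0.874 (Prx). With the Schwann cell transcription factors and co-factors all 7 members had a negative r, from -0.558 (Pmp2) to -0.254 (Egr2). No p was computed for these values, which were picked after they were seen. Of the dorsal root ganglion neuron genes 5 of 9 were tested in GDX against intact males and 0 called by edgeR, also before adjustment at 0.05, while in OVX against intact females 0 were called by edgeR and 1 was under 0.05 before adjustment. Mrgprd had no read in any rat, and Calcb, which motor neurons also make, held 61.7% of the summed CPM. Skeletal muscle genes, 5 in the table with Acta1 as the most abundant, had summed levels of 3.15 to 41.2 CPM in intact males and 4.37 to 17.9 CPM in GDX males, and 0 of 2 tested there were called by edgeR, also before adjustment at 0.05. In OVX against intact females 3 were tested, all positive (median 1.69), with 0 called by edgeR and 2 under 0.05 before adjustment, and the summed level reached 65.8 CPM in OVX female 4. For longer against shorter fragments both tested genes were negative, with 0 called by edgeR and 2 under 0.05 before adjustment.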

How the data were processed

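The values used are read counts per gene in 22 libraries, deposited by the authors without normalization. The table heads the 5 columns of intact males Inact_Adult_Male, read here as a misspelling of Intact because their rat numbers are those of the intact males in the labels. Per the labels they were made with TopHat2 2.0.13 and Subread, while the methods of the study name Hisat2, so the aligner is not settled here. The labels also name a TruSeq preparation and the study's methods a SMARTer kit, so the library preparation is not settled either. The libraries' fragment classes come from the study's methods. The Poisson intervals of Egr2 and the limit given for Ncmap cover counting error only. The intervals of log2 fold changes were made from the SE of edgeR's fits, which also takes in variation between rats. Reads carried no molecular identifiers. The members and gene lists were chosen with earlier results of these data known.

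Each comparison was fitted in R 4.3.3 with edgeR 4.0.16 on the groups compared (filterByExpr, TMM, glmQLFit, glmQLFTest), with Benjamini-Hochberg adjustment over all genes tested and calls at an adjusted p under 0.1. The difference between responses used all 22 libraries. Log2 CPM had a prior count of 2. CPM per rat used library sizes scaled by TMM over all 22 libraries. The pipeline was tested on simulated data. No 2 libraries of a group were identical (lowest chi-square per gene 5.23).

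Genes named are the 7 members, and from each of 15 lists the most abundant gene and, in GDX against intact males, OVX against intact females and their difference, of the called genes up to 3 per direction, taken by smallest adjusted p. For likeness they come from the 3 tested genes with the highest r for each member and 10 for the mean of the members. Results of 2 genes of the lists are not reported here, also where this rule would name them. Alternatives were RLE factors, DESeq2 1.42.0, no filter, a filter at 1 CPM, all libraries in 1 fit, fragment class as a term, the shorter class only, the rat number as a block, the meninges and fibroblast level as a term, and each rat left out in turn.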

Additional observations from a re-analysis of the deposited data

Results flagged for a closer look

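Of 92 sets of values of 1 group, 8 held a rat far from the rest in Dixon's test at 95%, where chance alone marks about 5% of sets. No cause was tested for any of them. Ncmap in OVX female 6 was 0.547 CPM, below 1.04 to 1.28 in the other OVX females. OVX female 4 had a summed level of 20464 CPM for the other peripheral myelin genes (others 22451 to 23494) and of 24165 CPM for the oligodendrocyte genes (others 26407 to 27580), lists that share genes. Intact male 6 had 759.2 CPM for axon to Schwann cell signals (others 670 to 685.2). Intact female 2 had 906.3 CPM for the genes of non-myelinating and immature Schwann cells (others 861.6 to 871.8). GDX male 6 had 611 CPM for motor neuron genes (others 511.2 to 539.3). For skeletal muscle genes intact male 2 had 41.2 CPM (others 3.15 to 5.01) and GDX male 4 had 17.9 CPM (others 4.37 to 6.18).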

How the results depend on the processing

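In GDX against intact males, 1995 genes were called, and 796 with the fragment class as a term, 440 in the shorter class only and 6 with the meninges and fibroblast level as a term. Of the members 1 was called, against 0 with DESeq2, 2 with all libraries in 1 fit (Prx and Pmp2), 2 with the class as a term (Prx and Pmp22), 2 in the shorter class only (Prx and Pmp2) and 0 with the meninges and fibroblast level as a term. The last turned the log2 fold changes to -0.103 (Pmp22), -0.569 (Prx), -0.072 (Drp2), -0.649 (Ncmap), -0.843 (Pmp2) and -0.001 (Cdh19). Leaving out 1 rat gave between 1202 and 2446 genes and between 0 and 4 members.

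In OVX against intact females, 5 genes were called, and 174 with DESeq2, 11 without a filter, 9 with all libraries in 1 fit, 3 with the class as a term and 8 with the meninges and fibroblast level as a term. The sign changed for Prx with the meninges and fibroblast level (-0.093), for Ncmap (0.002) and Pmp2 (0.086) with the class as a term, and for Pmp2 in the shorter class only (0.083). Without 1 rat there were 0 to 113 genes, and log2 fold changes of -0.037 to 0.230 for Prx and -0.014 to 0.077 for Cdh19.

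For the difference between both responses, 18 genes were called, and 243 with DESeq2, 33 without a filter, 6 with a filter at 1 CPM, 6 with the class as a term, 5 in the shorter class only and 1 with the meninges and fibroblast level as a term, which gave -0.026 for Prx. Without 1 rat there were 1 to 275 genes.

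Between the intact sexes, 599 genes and 3 members were called, against 4 members with DESeq2 and 4 with all libraries in 1 fit (Ncmap added in both), 34 genes and 0 members in the shorter class only and 20 genes and 0 members with the meninges and fibroblast level as a term. Without 1 rat there were 352 to 777 genes and 2 to 5 members. In GDX males against OVX females 35 genes were called, and 130 with DESeq2, 61 with all libraries in 1 fit and 231 with the meninges and fibroblast level as a term. Without 1 rat there were 23 to 44 genes, and log2 fold changes of -0.086 to 0.013 for Pmp22, -0.027 to 0.063 for Drp2, -0.265 to 0.082 for Ncmap and -0.025 to 0.113 for Cdh19. For longer against shorter fragments 1 gene was called, and 59 with DESeq2, 210 and 1 member (Pmp22) without a filter, and 2 with the meninges and fibroblast level as a term. Without 1 rat there were 0 to 2 genes.

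With the rat number as a block, 1274 genes were called in GDX against intact males, 0 in OVX against intact females, 0 for the difference between both responses and 255 between the intact sexes, where Drp2 lost its call (adjusted p = 0.151 by edgeR). No other member's call changed under the block. Deviations of rats with the same number correlated between -0.115 and 0.0626, so these rats were not alike in this measure. Whether they shared a cage, a day of surgery or a processing batch is not given and was not tested. Over all member values, 685 kept their sign and side of the threshold. At an unchanged sign, 24 lost a call and 12 gained 1. Another 22 changed sign and are counted apart, whether or not a call changed too. Among them is Prx in GDX against intact males with the meninges and fibroblast level as a term, which also lost its call. The cause was not tested in any of these cases. Ncmap did not pass a filter at 1 CPM in GDX against intact males, and Egr2 was not tested at its depth.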
